A study of Homo sapiens with 6 samples.

Results

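The ATF4 amino acid response and the tRNA synthetases it is known to control were examined as a set of 35 named genes, among 18372 genes with a usable signal on the arrays. The set held 25 genes of the amino acid response and 10 cytosolic tRNA synthetases. It was taken by gene symbol, from a list drawn up with earlier results of these data known. All 35 genes were found, each read from the transcript cluster with the highest mean over the arrays, where a cluster is the group of probes that the array design assigns to one transcript.

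HepG2 is a human hepatoma cell line, here cultured in medium with foetal bovine serum. Cells given 50 µg/ml of a water extract of Barringtonia racemosa leaf for 24 h were hybridised to 3 arrays, and untreated cells to 3 others. The samples analysed here held 1 dose and 1 time, with no vehicle group. No time was recorded for the untreated cells, so whether they were collected at 24 h is not known. The labels call the arrays of a group biological replicates but do not name separate cultures, so each p-value measures the spread between these arrays, which may be technical.

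Amino acid shortage, endoplasmic reticulum stress, haem shortage and viral RNA each activate a kinase that phosphorylates the translation factor eIF2. General translation is then slowed, while the mRNA of the transcription factor ATF4 is translated more efficiently through its upstream open reading frames. ATF4 pairs with C/EBP proteins and binds C/EBP-ATF response elements in genes for amino acid synthesis, amino acid import and tRNA charging, so ATF4 protein can change with little change in ATF4 mRNA. In hepatocytes the same programme is known for the secreted hormones FGF21 and GDF15.

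The values were log2 intensities, on which a difference of 1 is a doubling, and they compare arrays for one gene but not one gene with another. As a stand-in for background, 357 clusters of olfactory receptors were used, and the 95th percentile of their means was 3.28. In both groups 34 of the 35 genes averaged above that line, as did 12369 of all 19291 tested clusters. FGF21 stayed below it on all 6 arrays, and its values of 3.09, 2.95 and 3.09 in leaf extract-treated cells, against 3.20, 3.04 and 3.11 in untreated cells, are given without a direction. The cell label was checked with 9 measured hepatocyte markers, albumin, alpha-fetoprotein and apolipoproteins among them, and each lay between 7.61 and 11.46 on every array. Of 13 markers of immune cells, fibroblasts, endothelium and squamous lines, the highest single value was 4.46. For 7 of the 13 a group mean lay above the olfactory receptor line, so passing it does not by itself show expression.

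The core of the C/EBP-ATF response element is TGATGNAA, where N is any base. It was searched on both strands of the RefSeq promoter sequences (GRCh38.p14) from 250 bases before to 50 bases after each start site. A promoter was listed for 28 of the 35 genes, the others being NUPR1, PSPH, SHMT2, ALDH1L2, EIF4EBP1, YARS1 and LARS1. Each of the 28 genes was represented by the first promoter listed for its symbol, whereas the 35116 below were all listed promoters of full length. Any other promoter of a gene did not count for it. The motif occurred in 10 of the 28 (35.7%), against 1270 of all 35116 promoters (3.62%). The form TGATGCAA occurred in 7 of the 28, against 304 of the 35116 (0.866%). Among the promoters listed, TGATGNAA was held by 5 of 8 synthetases and by 5 of 20 amino acid response genes, and TGATGCAA by 5 and 2 of them. The 10 windows are shown because they carry this motif, which most listed promoters of the group lacked. Each is on the strand that reads TGATGNAA, with that motif in capitals.
ASNS (chr7:97872459-97872486, minus strand): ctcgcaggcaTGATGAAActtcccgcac
ATF3 (chr1:212565206-212565233, plus strand): aaggtcaggaTGATGGAAggctgtcata
CHAC1 (chr15:40953252-40953279, minus strand): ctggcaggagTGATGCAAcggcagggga
SLC7A1 (chr13:29595664-29595691, minus strand): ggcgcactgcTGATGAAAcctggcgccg
FGF21 (chr19:48755460-48755487, minus strand): tcctcctcccTGATGCAAtcctggtgtt
CARS1 (chr11:3057408-3057435, plus strand): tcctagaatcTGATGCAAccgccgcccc
AARS1 (chr16:70289676-70289703, plus strand): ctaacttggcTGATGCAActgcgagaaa
NARS1 (chr18:57621805-57621832, minus strand): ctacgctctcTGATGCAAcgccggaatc
IARS1 (chr9:92293693-92293720, plus strand): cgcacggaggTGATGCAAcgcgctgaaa
MARS1 (chr12:57488054-57488081, minus strand): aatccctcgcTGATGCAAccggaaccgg

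In all 5 synthetase windows the motif had the same 8 letters, TGATGCAA. It also began close to the start site in 4 of them, at -13 in IARS1, -4 in MARS1, -2 in CARS1 and 15 in NARS1, and farther away, at -187, in AARS1. These positions count bases from the start site to the first base of the match in the direction of the gene. For the amino acid response genes the position was -209 in CHAC1, -191 in ATF3, -68 in ASNS, -54 in FGF21 and 8 in SLC7A1. A match is a description of letters and not a binding site. The 250 bases upstream of ASNS and VLDLR, the genes with the smallest p-values below, are shown for comparison, again with TGATGNAA in capitals.
ASNS (chr7:97872409-97872658, minus strand): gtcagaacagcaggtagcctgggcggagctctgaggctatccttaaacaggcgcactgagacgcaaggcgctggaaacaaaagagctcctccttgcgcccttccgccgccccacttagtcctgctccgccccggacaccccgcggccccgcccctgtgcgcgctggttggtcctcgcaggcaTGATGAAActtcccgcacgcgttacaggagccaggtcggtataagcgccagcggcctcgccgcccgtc
VLDLR (chr9:2621537-2621786, plus strand): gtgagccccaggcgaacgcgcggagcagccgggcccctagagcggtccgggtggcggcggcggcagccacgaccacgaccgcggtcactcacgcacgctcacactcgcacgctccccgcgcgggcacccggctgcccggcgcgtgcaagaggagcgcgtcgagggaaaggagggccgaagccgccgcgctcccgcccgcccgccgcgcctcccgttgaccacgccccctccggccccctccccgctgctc

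The motif stood in the ASNS sequence and these letters were not found in the window of VLDLR, nor in those of ATF4, DDIT3, TRIB3 or SESN2.

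As a whole the 35 genes had differences centred near 0. In leaf extract-treated cells 20 had a higher mean and 15 a lower mean than in untreated cells, and the median log2 fold change was 0.02, the median over all 19291 tested clusters being 0.01. The median was 0.02 for the 25 amino acid response genes and 0.03 for the 10 synthetases, and the sign of neither was stable. For the amino acid response genes it was 0.08 after quantile normalization, -0.04 with arrays centred on their medians, -0.03 without leaf extract array 2 and -0.01 without untreated array 2. For the synthetases it was 0.14 after quantile normalization, -0.04 with centred arrays, -0.01 with array weights and -0.08 without leaf extract array 2. The gene with the highest log2 fold change was the lipoprotein receptor VLDLR (0.52) and that with the lowest was the translation repressor EIF4EBP1 (-0.36). Each gene was tested with limma, with Benjamini-Hochberg adjustment over all 19291 clusters.

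No gene of the 35 passed an adjusted p of 0.05, a threshold passed by 1 cluster in the whole table (0.00518%). At an unadjusted p under 0.05, 2 genes were higher (ASNS and VLDLR) and 0 were lower, where 3.87% of all clusters were higher and 5.90% were lower. The series' own thresholds, which join p under 0.05 to a fold of 1.5 or more either way, were met by 0 of the 35, against 0.840% of all clusters. All 3 leaf extract arrays lay above all 3 untreated arrays for 4 genes (ASNS, VLDLR, CARS1 and WARS1), where 6.14% of all clusters did so. The opposite order was seen for 0 genes and for 7.41% of all clusters. These counts are for the values as deposited, and the count of higher genes was larger, at 7 of 35 against 4.74% of all clusters, after quantile normalization. For 29 of the 35 the 95% confidence interval of the change lay inside 1.5 fold either way, the exceptions being ATF4, ALDH1L2, CTH, VLDLR, EIF4EBP1 and YARS1. The share of all clusters with such an interval was not taken, so this describes precision and not a trait of these genes. RNA was taken from whole cultures, so a change in the number of cells that express a gene and a change in RNA per cell cannot be told apart.

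**Figure D1:**
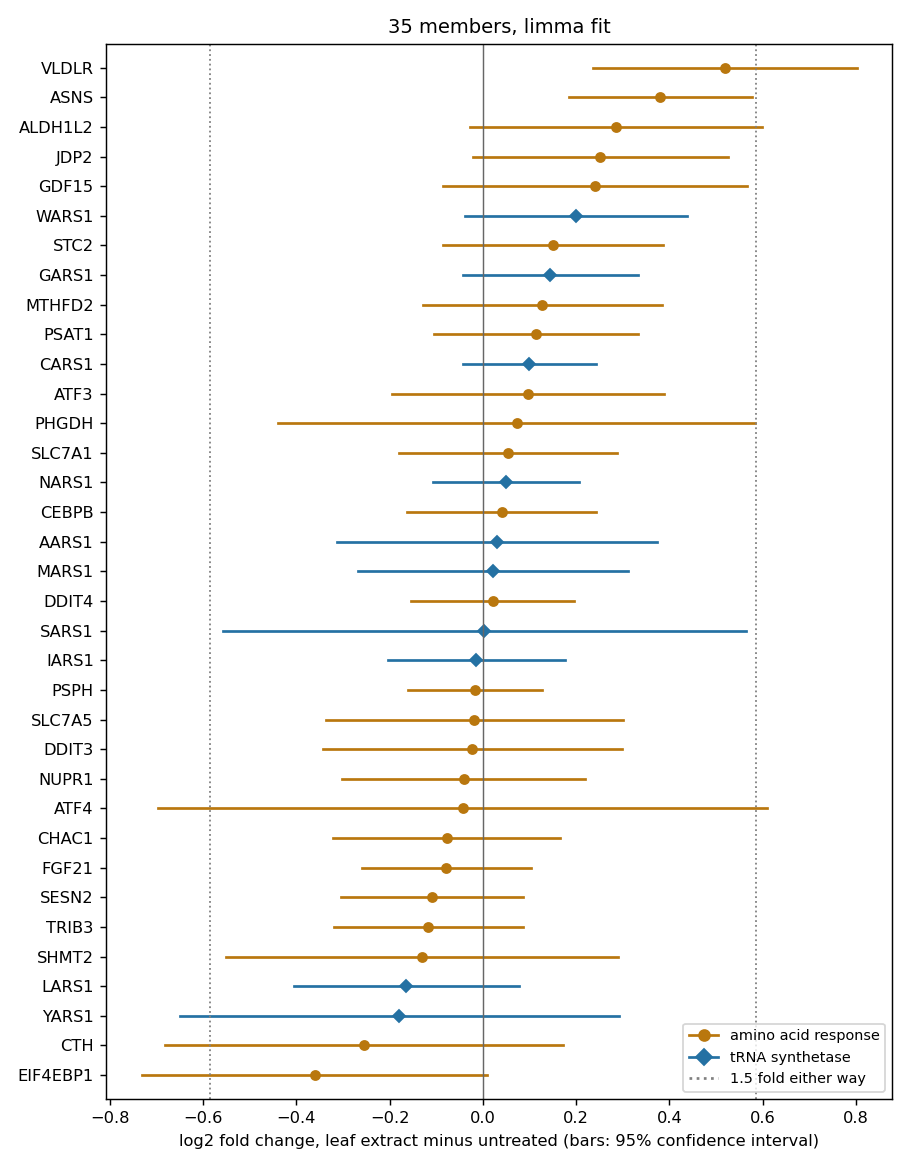
Log2 fold change of each of the 35 genes, leaf extract minus untreated, from limma (points, circles for amino acid response genes and diamonds for tRNA synthetases) with its 95% confidence interval (bars, n = 3 arrays in each group). Only the intervals of VLDLR (0.24 to 0.80) and ASNS (0.18 to 0.58) lie wholly to the right of 0, and none lies wholly to the left.

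Among the transcription factors and regulators, ATF4 itself read 4.98, 5.01 and 5.13 on leaf extract arrays 1, 2 and 3, against 4.56, 4.98 and 5.71 on untreated arrays 1, 2 and 3. The leaf extract arrays lay close together and inside the range of the untreated arrays, which was wide. The log2 fold change was -0.04 (SE 0.27, limma adjusted p = 0.960), and its interval of -0.70 to 0.61 allows a change past 1.5 fold in either direction. Without untreated array 3 the difference was 0.27 (adjusted p = 0.713).

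DDIT3 encodes CHOP, a C/EBP family factor induced downstream of ATF4. Its values were 3.21, 3.58 and 3.08 in leaf extract-treated cells, against 3.35, 3.35 and 3.24 in untreated cells, a log2 fold change of -0.02 (SE 0.13, limma adjusted p = 0.955). The groups overlapped, and the leaf extract arrays held both the highest and the lowest value. The group means of DDIT3, 3.29 and 3.32, lay at the olfactory receptor line of 3.28, so its values say little about a direction. TRIB3, a pseudokinase that restrains ATF4 and CHOP, read 4.14, 4.19 and 3.93 in leaf extract-treated cells, against 4.19, 4.24 and 4.19 in untreated cells. The difference of -0.12 (SE 0.08, limma adjusted p = 0.617) had an interval of -0.32 to 0.09.

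The remaining regulators overlapped between the groups. The log2 fold change was 0.10 for ATF3, a stress-induced partner and repressor in the same family, 0.04 for CEBPB, a C/EBP partner of ATF4, and -0.04 for the stress-induced chromatin protein NUPR1. JDP2, a bZIP repressor related to ATF3, read 4.31, 3.88 and 4.14 in leaf extract-treated cells, against 3.82, 3.87 and 3.88 in untreated cells. Its difference of 0.25 (SE 0.11) had a limma adjusted p of 0.513. Leaf extract array 2 lay at the level of the untreated arrays and the other 2 leaf extract arrays above it.

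Asparagine synthetase (ASNS), a classical target of the response, makes asparagine from aspartate and glutamine. It read 6.94, 7.08 and 6.85 in leaf extract-treated cells, against 6.61, 6.61 and 6.51 in untreated cells. Every leaf extract array was above every untreated array. The log2 fold change was 0.38 (SE 0.08, 95% interval 0.18 to 0.58), a fold of 1.30, with an unadjusted p of 0.00278 and an adjusted p of 0.383 in limma.

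The serine synthesis enzymes PHGDH, PSAT1 and PSPH, which act in that order, had log2 fold changes of 0.07, 0.11 and -0.02. PHGDH ranged from 5.97 to 6.84 on the leaf extract arrays and from 6.22 to 6.30 on the untreated arrays. PSPH was read from the brighter of its 2 clusters. The dimmer cluster had 4.77, 5.17 and 4.83 in leaf extract-treated cells, against 4.44, 3.99 and 4.66 in untreated cells, a difference of 0.56 (SE 0.19, unadjusted p = 0.0236 in limma, not passing after adjustment). PSPH has a closely similar pseudogene, so which transcript either cluster reads is uncertain.

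Of the enzymes of mitochondrial one-carbon metabolism, SHMT2, which splits serine, had a log2 fold change of -0.13, and MTHFD2, which oxidises the methylene group so released, had 0.13. A second, dimmer MTHFD2 cluster had 0.01. ALDH1L2, a mitochondrial formyltetrahydrofolate dehydrogenase, read 4.13, 3.95 and 3.67 in leaf extract-treated cells, against 3.50, 3.64 and 3.75 in untreated cells. Its groups overlapped, with a difference of 0.29 (SE 0.13, limma adjusted p = 0.513). CTH, which releases cysteine from cystathionine, read 4.59, 5.18 and 4.50 in leaf extract-treated cells, against 5.05, 4.99 and 4.99 in untreated cells. Leaf extract arrays 1 and 3 lay below all untreated arrays and array 2 above them, so the difference of -0.26 (SE 0.18, limma adjusted p = 0.607) averages values on both sides.

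CHAC1, which breaks down glutathione and is induced through ATF4, read 3.75, 3.49 and 3.48 in leaf extract-treated cells, against 3.58, 3.61 and 3.77 in untreated cells. The difference of -0.08 (SE 0.10, limma adjusted p = 0.775) lay within the spread of both groups. DDIT3, TRIB3 and CHAC1 are commonly read as markers of an active response, and none of the 3 had groups that separated. DDIT3 averaged at the olfactory receptor line of 3.28, and CHAC1, with means of 3.58 and 3.65, not far above it. A lack of separation in such dim signals does not show whether the response was active.

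VLDLR, a receptor for triglyceride-rich lipoproteins that ATF4 is known to induce in stressed hepatocytes, read 6.25, 6.56 and 6.52 in leaf extract-treated cells, against 6.02, 6.01 and 5.75 in untreated cells. All leaf extract arrays were above all untreated arrays. The log2 fold change was 0.52 (SE 0.12, 95% interval 0.24 to 0.80), a fold of 1.43, with an unadjusted p of 0.00376 and an adjusted p of 0.383 in limma. Both amino acid transporters overlapped between the groups. SLC7A5, which imports large neutral amino acids, had a log2 fold change of -0.02, and SLC7A1, which imports cationic amino acids, had 0.05.

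Of the genes that restrain mTORC1 or translation, SESN2, a leucine sensor, had a log2 fold change of -0.11, and DDIT4, an inhibitor of mTORC1 signalling, had 0.02. EIF4EBP1, which holds back cap-dependent translation by binding eIF4E, read 4.63, 5.14 and 4.75 in leaf extract-treated cells, against 5.14, 5.07 and 5.40 in untreated cells. Leaf extract arrays 1 and 3 were below all untreated arrays, and array 2 was among them. The difference of -0.36 (SE 0.15, 95% interval -0.73 to 0.01) had a limma adjusted p of 0.513.

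Of the secreted proteins, the glycoprotein hormone STC2 had a log2 fold change of 0.15. GDF15, a stress hormone that lowers food intake, read 5.92, 5.99 and 5.64 in leaf extract-treated cells, against 5.61, 5.81 and 5.41 in untreated cells. Its groups overlapped, and the difference was 0.24 (SE 0.14, limma adjusted p = 0.554).

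tRNA synthetases join each amino acid to its tRNA. The 10 members spanned log2 fold changes of -0.18 to 0.20, with 7 above 0 and 3 below. For 9 of the 10 the 95% interval lay inside 1.5 fold either way, a count again given without its share over all clusters. The tryptophanyl enzyme WARS1, which interferon also induces, read 6.45, 6.71 and 6.45 in leaf extract-treated cells, against 6.42, 6.37 and 6.22 in untreated cells. Its arrays separated by group, with a difference of 0.20 (SE 0.10, limma adjusted p = 0.525). The cysteinyl enzyme CARS1 read 4.58, 4.56 and 4.60 in leaf extract-treated cells, against 4.44, 4.49 and 4.51 in untreated cells. It too separated, with a smaller difference of 0.10 (SE 0.06, limma adjusted p = 0.566).

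The other 8 synthetases overlapped between the groups. The log2 fold change was 0.14 for GARS1 (glycine), 0.05 for NARS1 (asparagine), 0.03 for AARS1 (alanine), 0.02 for MARS1 (methionine), -0.01 for IARS1 (isoleucine), -0.16 for LARS1 (leucine) and -0.18 for YARS1 (tyrosine). SARS1, the serine enzyme, read 7.24, 8.12 and 7.31 in leaf extract-treated cells, against 7.67, 7.54 and 7.46 in untreated cells. Its mean difference was 0.00 because array 2 was far above and arrays 1 and 3 below all untreated arrays, and its interval was -0.56 to 0.56. The 10 genes with TGATGNAA in the promoter had a median log2 fold change of 0.04, and the 18 with a listed promoter and no match had 0.06.

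**Figure D2:**
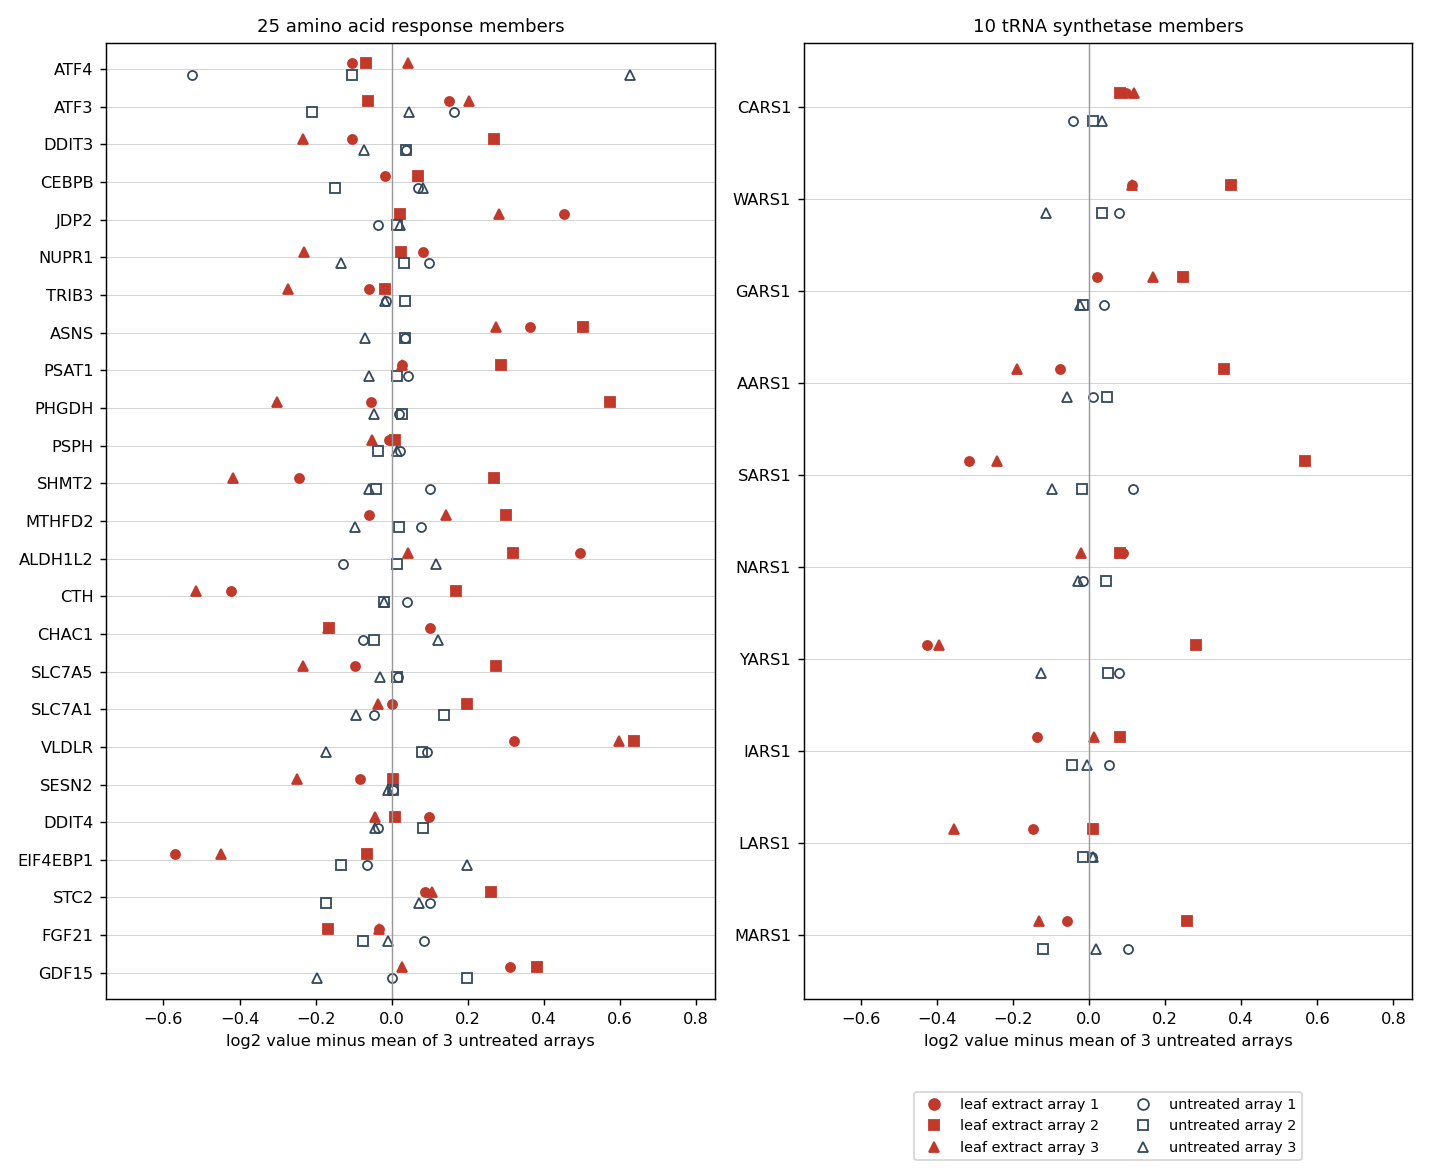
Log2 value of each of the 35 genes on each array minus the mean of the 3 untreated arrays for that gene. Filled red symbols are leaf extract arrays and open symbols untreated arrays, 3 of each. All red symbols lie to the right of all open ones for ASNS, VLDLR, CARS1 and WARS1 only, and the red square (leaf extract array 2) is often apart from the other 2 red symbols, as for SARS1, YARS1, PHGDH and CTH.

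The leaf extract arrays did not act as 1 group for many of these genes. Leaf extract array 2 was the highest of all 6 arrays for 20 of the 35 genes, 12 of the 25 amino acid response genes and 8 of the 10 synthetases, where 17.4% of all clusters had that array highest. For 9 genes (DDIT3, PHGDH, SHMT2, CTH, SLC7A5, AARS1, SARS1, YARS1 and LARS1) array 2 was above, and arrays 1 and 3 were below, all untreated arrays, a pattern shown by 4.22% of all clusters. For LARS1 the margin of array 2 does not show after rounding. This pattern was picked after the values were seen, and it is described without a test.

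On leaf extract arrays 1, 2 and 3 the median of the 25 amino acid response genes, each taken relative to its untreated mean, was -0.01, 0.17 and -0.04. For the 10 synthetases it was -0.07, 0.25 and -0.08. Array 2 was therefore the array on which both groups were raised. Over all clusters the median stayed within 0.01 of 0 on each leaf extract array. The spread of values differed too, the upper quartile of all tested clusters being 5.19, 5.34 and 5.18 on leaf extract arrays 1, 2 and 3, against 5.34, 5.26 and 5.29 on untreated arrays 1, 2 and 3. Over all tested clusters array 2 correlated with the untreated arrays at 0.992 to 0.993 and with leaf extract arrays 1 and 3 at 0.988 and 0.986. Leaf extract arrays 1 and 3 correlated with each other at 0.988, so they were no closer to each other than array 1 was to array 2.

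Markers of squamous lines were highest on leaf extract arrays 1 and 3, where the synthetase median was lowest. KRT5, KRT14 and KRT16 were measured of 4 listed, and their summed linear signal was 51.1, 36.3 and 49.8 on leaf extract arrays 1, 2 and 3, against 37.7, 34.5 and 39.4 on untreated arrays 1, 2 and 3. Their highest log2 value was 4.46, and none was at 0. Summed immune markers gave 25.2, 23.4 and 27.7 on leaf extract arrays 1, 2 and 3. In that order endothelial markers gave 30.8, 26.0 and 28.4, and fibroblast markers 32.3, 31.7 and 34.3. The log2 median of the olfactory receptors was 2.86, 2.76 and 2.84. Array 2 was thus lowest of the leaf extract arrays in these dim sets too, and not for squamous markers alone. The part of these markers and of the spread of the arrays in the results of the 35 genes was not tested.

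When the arrays were brought to a common distribution by quantile normalization, array 2 was highest for 11 of the 35 genes, 7 amino acid response genes and 4 synthetases, where 14.9% of all clusters had it highest. The pattern with array 2 above and the others below the untreated arrays was kept by 4 genes (DDIT3, SHMT2, CTH and YARS1), against 3.43% of all clusters. On the same scale 7 genes were higher at an unadjusted p under 0.05 (ASNS, VLDLR, PSAT1, MTHFD2, GDF15, WARS1 and GARS1) and 1 was lower (EIF4EBP1), where 4.74% of all clusters were higher and 5.40% were lower. The smallest adjusted p was 0.114, for ASNS, whose log2 fold change was then 0.50. The synthetase median was 0.10, 0.24 and 0.09 on leaf extract arrays 1, 2 and 3.

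Leaving out leaf extract array 2 changed which genes passed the unadjusted threshold. JDP2 (0.37), ASNS (0.32) and VLDLR (0.46) were then higher. Lower at that threshold were CTH (-0.47), SHMT2 (-0.33), EIF4EBP1 (-0.51), SARS1 (-0.28), YARS1 (-0.41) and LARS1 (-0.25). With that array left out 8.28% of all clusters were higher and 11.7% were lower, and no gene of the 35 had an adjusted p under 0.05, the smallest being 0.0884 for CTH. ASNS and VLDLR were higher at the unadjusted threshold in all 3 treatments of the arrays.

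**Figure D3:**
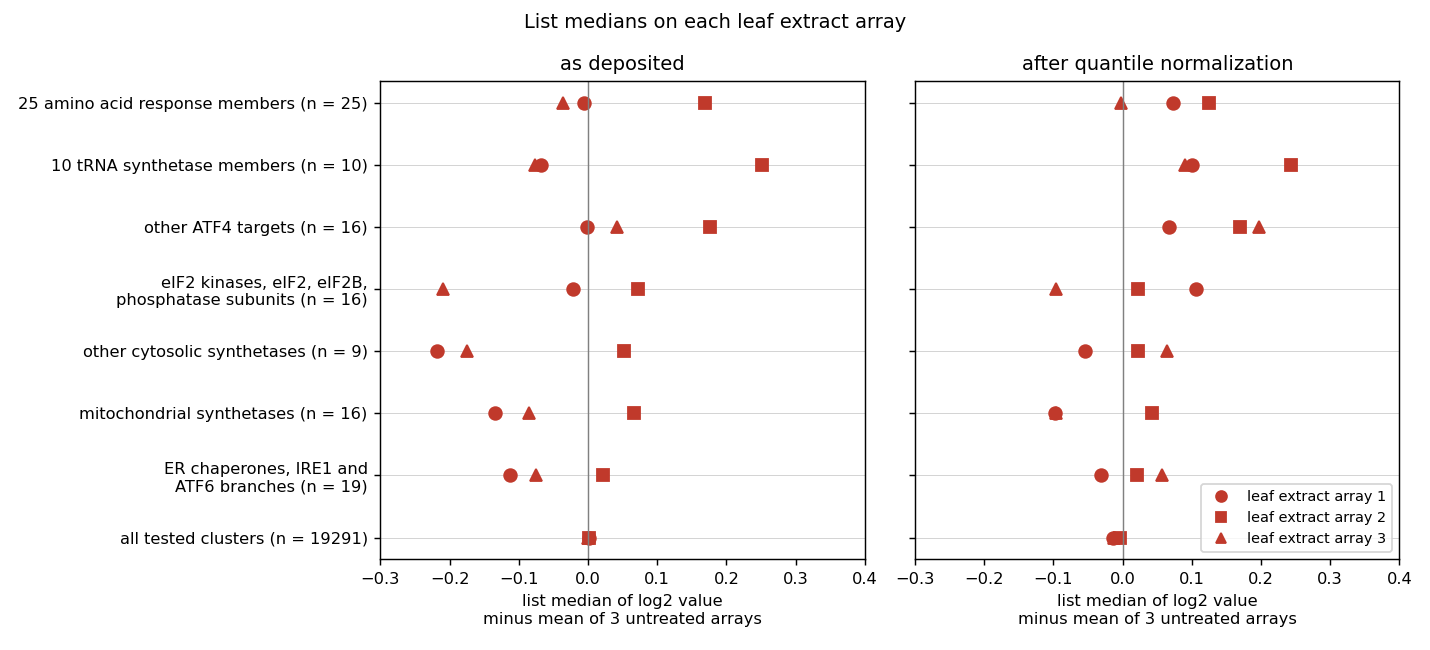
Median, over the genes of each list, of the log2 value on each leaf extract array minus the mean of the 3 untreated arrays, as deposited (left) and after quantile normalization (right). As deposited, the square for array 2 lies to the right of the other arrays in every gene list (0.17 for the amino acid response genes and 0.25 for the synthetases), and all 3 symbols lie near 0 for all tested clusters. After quantile normalization another array lies farthest right for the other ATF4 targets, the eIF2 genes, the other cytosolic synthetases and the endoplasmic reticulum genes.

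Genes of the same pathway outside the 35 were taken as 5 lists, and all their adjusted p-values were above 0.05. At an unadjusted p under 0.05, the threshold of the counts that follow, 3.87% of all clusters were higher and 5.90% lower. Of the 16 measured of 17 other ATF4 targets, 5 were higher and 0 lower, with a median log2 fold change of 0.08. The cystine importer SLC7A11, which NRF2 also induces, read 8.50, 8.75 and 8.43 in leaf extract-treated cells, against 7.80, 7.77 and 7.78 in untreated cells. It separated widely, with a log2 fold change of 0.78 (SE 0.10, unadjusted p = 0.000118, adjusted p = 0.190 in limma), and it was the single gene of the list past the series' own thresholds.

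PYCR1, the last enzyme of proline synthesis, read 4.92, 4.98 and 4.91 in leaf extract-treated cells, against 4.72, 4.71 and 4.79 in untreated cells, a difference of 0.20 (SE 0.06, limma adjusted p = 0.483). KLHL24, an adaptor of a ubiquitin ligase, read 4.08, 4.51 and 4.04 in leaf extract-treated cells, against 3.77, 3.86 and 3.88 in untreated cells, a difference of 0.38 (SE 0.13, limma adjusted p = 0.506). Both separated by group. The others were the glycine transporter SLC6A9 (0.32) and the peptide hormone ADM2 (0.51). Without leaf extract array 2, SLC7A11, PYCR1, KLHL24 and ADM2 were still higher at that threshold and CEBPG was lower. On the quantile scale all 5 were higher, with SLC38A2 besides.

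**Figure D4:**
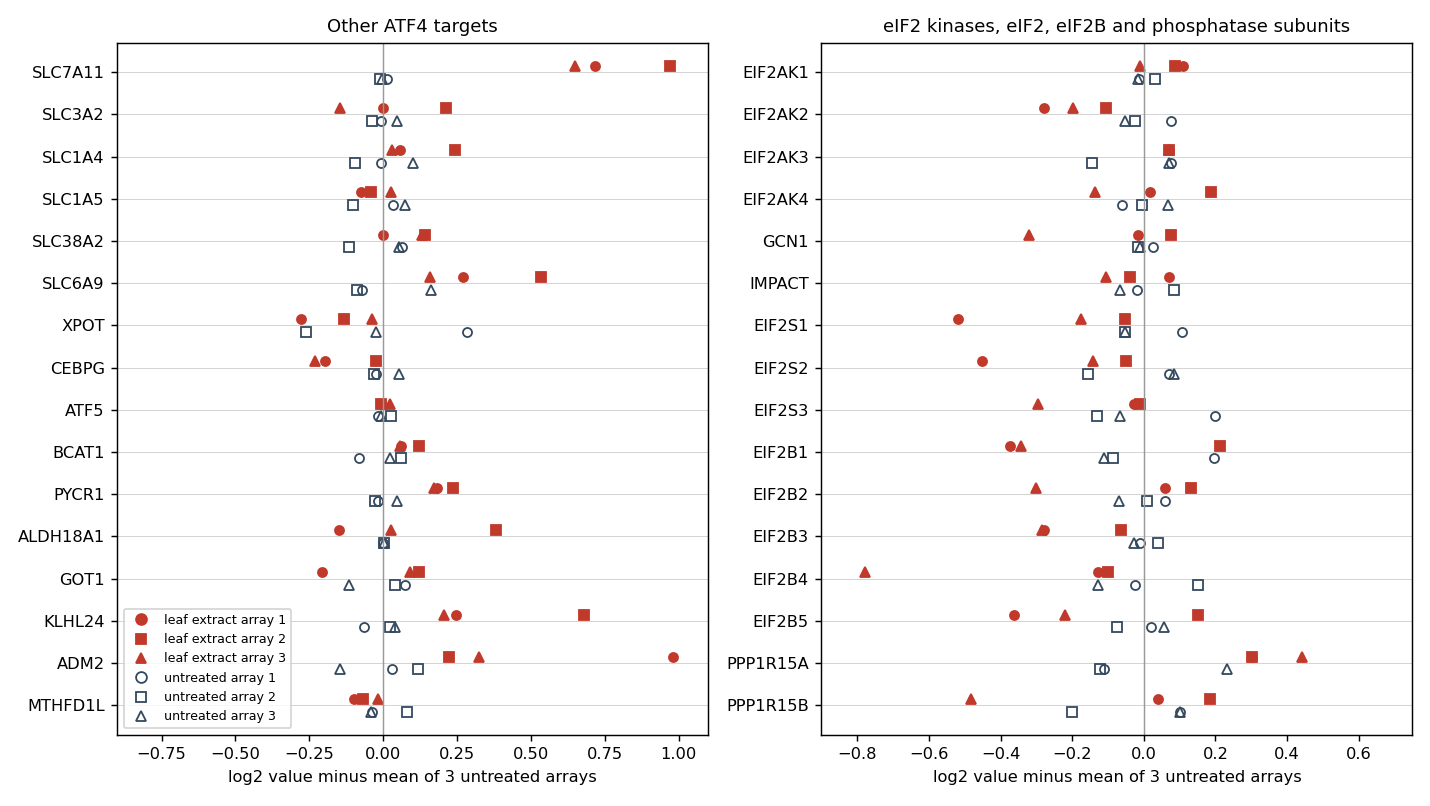
Log2 value on each array minus the mean of the 3 untreated arrays for 16 other ATF4 targets (left) and for 16 genes of the eIF2 kinases, eIF2, eIF2B and phosphatase subunits (right). Filled red symbols are leaf extract arrays and open symbols untreated arrays. SLC7A11 has the widest gap between groups (log2 fold change 0.78), and PPP1R15A is the gene on the right whose leaf extract arrays all lie above the untreated arrays.

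Of the 16 genes for eIF2, its kinases, its exchange factor eIF2B and its phosphatase subunits, 1 was higher and 2 were lower, with a median log2 fold change of -0.10. PPP1R15A, the stress-induced subunit (GADD34) that brings phosphatase to eIF2, read 5.06, 5.06 and 5.19 in leaf extract-treated cells, against 4.64, 4.63 and 4.99 in untreated cells. All leaf extract arrays were above all untreated arrays, with a difference of 0.35 (SE 0.11, limma adjusted p = 0.494). The lower genes were EIF2AK2 (-0.19), which encodes the double-stranded RNA kinase PKR, and EIF2B3 (-0.21), a subunit of eIF2B. Without leaf extract array 2 the counts were 1 higher and 5 lower, where 8.28% of all clusters were higher and 11.7% lower. After quantile normalization they were 1 higher and 1 lower (EIF2B3), where 4.74% of all clusters were higher and 5.40% lower. The median log2 fold change was then -0.03.

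Of 9 measured of 10 other cytosolic synthetases, 0 were higher and 2 lower (5.90% of all clusters were lower), with a median of -0.11. Without leaf extract array 2, 4 were lower (FARSA, FARSB, HARS1 and RARS1), where 11.7% of all clusters were lower. After quantile normalization 1 was lower (FARSB), where 5.40% of all clusters were lower. FARSB, the beta subunit of the phenylalanine enzyme, read 8.56, 8.83 and 8.73 in leaf extract-treated cells, against 9.06, 9.04 and 8.97 in untreated cells, a difference of -0.32 (SE 0.09, limma adjusted p = 0.442). RARS1, the arginine enzyme, read 8.84, 8.85 and 8.81 in leaf extract-treated cells, against 9.15, 8.92 and 9.12 in untreated cells, a difference of -0.23 (SE 0.08, limma adjusted p = 0.506). Both had all leaf extract arrays below all untreated arrays. The histidine enzyme HARS1 had the next smallest p-value, with a difference of -0.25.

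On leaf extract array 2 the median of these 9 was 0.05, and on arrays 1 and 3 it was -0.22 and -0.17. As deposited, the same array thus stood highest as for the 10 members. On the quantile scale the 9 had medians of -0.05, 0.02 and 0.06 on leaf extract arrays 1, 2 and 3, so array 3 stood highest. The median log2 fold change of the 9 was -0.01 on that scale, and that of the 10 members was 0.14. Without leaf extract array 2 both medians were below 0, at -0.17 and -0.08. The difference between the 2 lists was not tested.

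Of 16 measured of 17 mitochondrial synthetases, 1 was higher (VARS2, 0.27) and 1 lower (NARS2, -0.28), and WARS2 came next (-0.26). The median was -0.09. After quantile normalization 0 were higher and 1 was lower (NARS2), where 4.74% of all clusters were higher and 5.40% lower. Of 19 genes for endoplasmic reticulum chaperones and the IRE1 and ATF6 branches, which respond to unfolded proteins beside the eIF2 kinase PERK, 1 was higher and 0 were lower, with a median of -0.04. That gene was HERPUD1, a component of the degradation machinery of the endoplasmic reticulum, which read 7.81, 7.67 and 7.59 in leaf extract-treated cells, against 7.49, 7.46 and 7.34 in untreated cells (difference 0.26, SE 0.08, limma adjusted p = 0.494). The luminal proteins SDF2L1 (-0.23) and PDIA4 (-0.18) came next by p-value and did not pass. After quantile normalization 1 gene of this list was higher (HERPUD1) and 1 was lower (SDF2L1), beside the same shares of all clusters.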

How the data were processed

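RNA of HepG2 cells was measured on the Human Gene 1.0 ST array (Affymetrix). The deposited values are log2 intensities per transcript cluster. RMA, Partek and GCOS are listed in the notes of the submitters on processing, with neither role nor version. The deposited distributions differed in width between arrays. Of 33297 rows, those at 0 on all arrays (4468), with several symbols (1735) or unnamed (7803) were left out, which left 19291. For a gene with several clusters the one with the highest mean was used.

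Leaf extract was compared with untreated in limma 3.58.1 (R 4.3.3; lmFit and eBayes), with Benjamini-Hochberg adjustment over all 19291, after testing on simulated data. In the simulation 30 of 67 clusters changed by 1.5 fold reached an adjusted p under 0.05 in limma. For changes of 2 fold it was 54 of 67, and for 4 fold 63 of 66. A change of 1.5 fold can therefore be missed. With 3 arrays in each group the number of arrays limits the precision. Alternatives changed the normalization, filter, variance model, test, cluster rule, replicate block and arrays. The lists without leaf extract array 2 or with quantile normalization were added after seeing the data.

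Genes and lists were chosen with earlier results of these data known. Array values are given for those of the 35 genes with an unadjusted p under 0.05 or separate groups and for ATF4, DDIT3, TRIB3, ASNS and CHAC1. Each pathway list is represented by its 3 genes of smallest p. Array values of other genes, and other genes named from the lists, were chosen after their values were seen. Of the 35 genes, 11 had exactly equal values on some arrays. Some listed genes are not reported here.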

Additional observations from a re-analysis of the deposited data

How the results depend on the processing

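With 3 arrays in each group, signals near the olfactory receptor level and distributions of unequal width limit what can be told. No gene of the 35 had an adjusted p under 0.05 in any of the 15 alternatives. ASNS stayed higher, with log2 fold changes of 0.32 to 0.50 (adjusted p 0.109 to 0.824), as did VLDLR, with 0.43 to 0.62 (adjusted p 0.153 to 0.824). WARS1 (0.11 to 0.32), CARS1 (0.04 to 0.12), TRIB3 (-0.18 to -0.04) and CHAC1 (-0.17 to -0.02) also kept their direction.

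The count higher at an unadjusted p under 0.05, 2 as reported, was 7 after quantile normalization and 2 to 4 when single arrays were left out, the 4 arising without leaf extract array 3. The count lower, 0 as reported, was 1 after quantile normalization, 1 with arrays centred on their medians, 1 with array weights and 0 to 6 when single arrays were left out, the 6 arising without leaf extract array 2. The count past the series' own thresholds, 0 as reported, was 1 after quantile normalization and 0 to 1 when single arrays were left out, the 1 arising without leaf extract array 1. Shares of all clusters at the unadjusted threshold were taken only as reported, after quantile normalization and without leaf extract array 2. The counts from other alternatives have no such share, so they are not read as results about these genes. Over the fits with single arrays left out, ATF4 ran from -0.31 to 0.27 and changed sign without untreated array 3 (0.27). DDIT3 ran from -0.17 to 0.08 and changed sign without leaf extract array 1 (0.017) or leaf extract array 3 (0.082). The cause was not tested. By the test the series names, a plain analysis of variance without moderation, ASNS, VLDLR and CARS1 were higher (3), 0 were lower and 0 passed Benjamini-Hochberg adjustment. FGF21 dropped out where dim clusters were left out.

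With replicate number as a block, 3 genes were higher (ASNS, VLDLR and GDF15), 0 were lower and 0 passed the adjusted threshold. Deviations of same-numbered arrays correlated at -0.11, -0.18 and 0.12, and those of differently numbered arrays at -0.19 to 0.27. With 3 arrays in each group these values cannot decide whether arrays were paired. The labels give replicate numbers and state no pairing.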
